A study of Mus musculus with 17 samples.

Results

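The loci described here are autosomal stretches of open chromatin that were called in every untreated male library and in no untreated diestrus library, or the reverse. The assay was ATAC-seq, which reads open DNA from where a transposase can cut it, in neuronal (NeuN+) nuclei sorted from the bilateral nucleus accumbens of C57BL/6 mice (C57BL/6J in the study's methods) aged 52-54 days. The 3 male control and the 3 diestrus control libraries were each pooled from 3 animals that received no cocaine. Males have no estrous cycle and diestrus is its low-estrogen stage. Of 17 libraries in the series, these 6 chose the loci. The other 11 (3 proestrus control, the high-estrogen stage, and 8 taken 1 hour after 10 mg/kg cocaine given intraperitoneally, from 2 male, 3 diestrus and 3 proestrus pools) took no part in that choice. Peaks on chromosomes 1 to 19 were merged where they overlapped by at least 1 bp, which gave 225623 regions. Of these, 13461 (5.97%) had a peak in 3 of 3 male and 0 of 3 diestrus libraries and are called male-only. Another 4933 (2.19%) had the reverse pattern and are called diestrus-only. Both words describe peak calls in these 6 libraries, and a region without a peak can still hold reads.

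Most neurons of the nucleus accumbens are medium spiny neurons, GABAergic projection cells that carry dopamine receptors. They derive from the ventral forebrain, whereas the excitatory, glutamatergic neurons of the overlying cortex derive from the dorsal forebrain under basic helix-loop-helix factors of the Neurog and Neurod families, Emx1 and Tbr1. Distal open regions differ more between neuron types than promoters do, and they hold the short motifs that such factors bind. Neurod factors bind the E-box CAGATG.

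The sequences below illustrate the motifs described later. Each is 151 bases of GRCm38 around the summit of the strongest peak, on the plus strand, and capitals mark motifs found in it: CAGATG or its complement CATCTG (NeuroD E-box), TGANTCA (AP-1), TGACGTCA (cAMP response element), GGGCGGGG or its complement (SP/KLF) and TAATTA (homeodomain). The first 4 are male-only: the region ranked first by the lowest of its 3 fold enrichments, and the regions that overlap the promoters of 3 transcription factors of cortical excitatory neurons. The summit of the Tbr1 region lies downstream of the 1 kb promoter window that the region overlaps. The last 2 are among the strongest diestrus-only regions. The male-only regions ranked 2 and 3 and the region at the Crh promoter are not shown, and no motif was marked in their windows.
Male-only region near Emc2, chr15:43588169-43588319: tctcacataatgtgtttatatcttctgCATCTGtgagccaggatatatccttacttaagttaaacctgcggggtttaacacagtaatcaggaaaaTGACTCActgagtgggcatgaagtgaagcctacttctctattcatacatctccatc
Region over the Neurod6 promoter, chr6:55681134-55681284: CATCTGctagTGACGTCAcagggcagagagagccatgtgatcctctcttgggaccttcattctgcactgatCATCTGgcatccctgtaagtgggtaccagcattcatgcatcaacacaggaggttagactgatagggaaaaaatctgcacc
Region over the Emx1 promoter, chr6:85187427-85187577: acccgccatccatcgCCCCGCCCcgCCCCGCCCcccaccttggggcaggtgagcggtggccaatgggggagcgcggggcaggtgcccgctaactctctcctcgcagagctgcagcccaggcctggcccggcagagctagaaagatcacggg
Region that overlaps the Tbr1 promoter, around its summit, chr2:61804286-61804436: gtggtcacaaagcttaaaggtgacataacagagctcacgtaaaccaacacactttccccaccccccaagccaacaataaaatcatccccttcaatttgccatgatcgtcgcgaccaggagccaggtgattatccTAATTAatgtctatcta
Diestrus-only region in an intron of Alk, chr17:72472889-72473039: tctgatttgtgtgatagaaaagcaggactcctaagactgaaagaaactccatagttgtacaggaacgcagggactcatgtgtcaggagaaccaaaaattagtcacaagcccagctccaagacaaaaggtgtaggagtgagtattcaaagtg
Diestrus-only region in an intron of Kcnn3, chr3:89650161-89650311: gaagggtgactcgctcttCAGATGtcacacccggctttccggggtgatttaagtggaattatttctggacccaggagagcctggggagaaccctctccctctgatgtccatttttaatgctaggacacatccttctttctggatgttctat

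Male libraries held 148195, 132654 and 146714 autosomal peaks and diestrus libraries 127205, 137231 and 144699. The means differed by 6142.7 peaks, less than the spread between libraries of a group (142521 ± 8577 against 136378 ± 8778, SD, n = 3 each, two-sided exact permutation test p = 0.5, adjusted p = 0.5 over 2 tests; the smallest p possible is 0.1). With −log10 q of at least 5 the difference was 17874 peaks and the groups did not overlap (exact permutation test, p = 0.1). The background pileup, recovered from the step between fold enrichments, lay between 6.26 and 8.11 reads in male and between 6.75 and 8.64 in diestrus libraries. The median fold enrichment of a peak was 3.4 to 3.72 in male and 3.11 to 3.49 in diestrus libraries. The Jaccard index of called regions was 0.593 to 0.643 between male libraries, 0.554 to 0.576 between diestrus libraries and 0.44 to 0.482 across the groups.

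**Figure D1:**
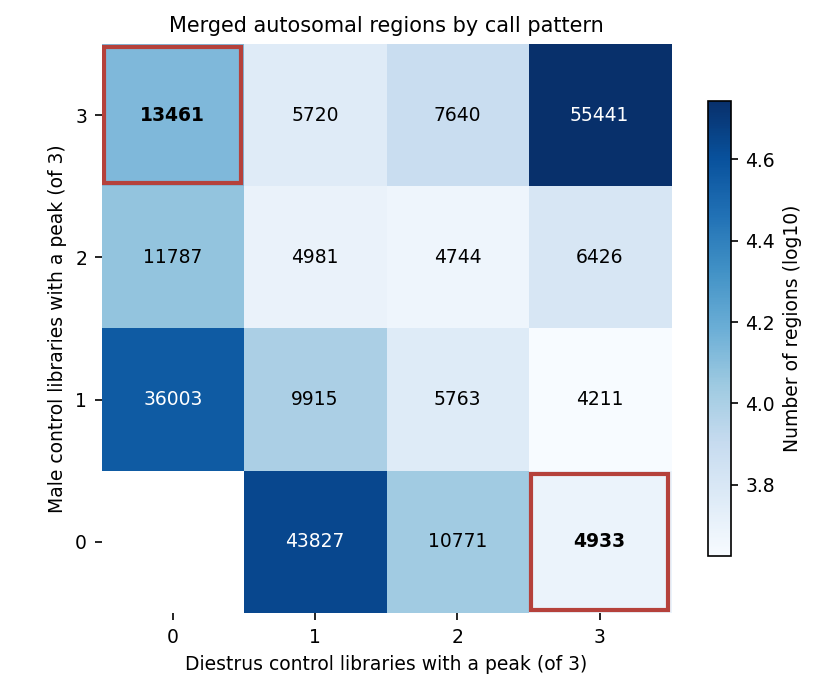
Number of merged autosomal regions by how many of the 3 male control libraries (vertical axis) and 3 diestrus control libraries (horizontal axis) had a peak there; shading is the log10 of the number. The outlined corners are the 13461 male-only and 4933 diestrus-only regions; 55441 regions had a peak in all 6 libraries.

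The plot of call patterns shows the neighbours of the 2 sets. Next to the male-only regions lay 5720 regions with a peak in 3 male and 1 diestrus library and 11787 with a peak in 2 male and 0 diestrus libraries. Their fold enrichment, averaged over the male libraries with a peak, had a median of 3.56 and 3.01, against 3.69 for male-only regions. On the diestrus side, 4211 regions had a peak in 3 diestrus libraries and 1 male library, and 10771 in 2 diestrus and 0 male libraries. Their medians were 3.08 and 2.76, against 3.07 for diestrus-only regions. Male-only regions thus had the higher values, but fold enrichments are not scaled between libraries. Over all peaks, too, the median was 3.4 to 3.72 in male and 3.11 to 3.49 in diestrus libraries. Few of either set were strong: the lowest of the 3 fold enrichments reached 5 in 1124 male-only (8.35%) and 23 diestrus-only regions (0.466%). Leaving out 1 diestrus library moved the diestrus-only number by more than 1.5 times, to 10678 without library 1, 8472 without library 2 and 7573 without library 3. The male-only number rose from 13461 as well, to 17740, 19147 and 16048 without male library 1, 2 and 3. Leaving out 1 diestrus library raised it to between 14908 and 15969.

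Ranked by the lowest fold enrichment over the 3 libraries, the 10 strongest male-only regions were all intergenic. The first lay at chr15:43587767-43588624, 111 kb from the start of Emc2, a subunit of the complex that inserts membrane proteins. Its fold enrichment was 13.3, 13.8 and 12.3 in male libraries 1, 2 and 3. It also had a peak in 8 of the other 11 libraries.

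The second, at chr1:21213581-21214772 and 3.8 kb from Tmem14a, had fold enrichments of 11.3, 11.6 and 13. The region at chr3:138626045-138626771, 99.9 kb from Eif4e, the cap-binding translation factor, had values of 13.1, 11.2 and 12.1. That at chr13:3776230-3776941, 27.4 kb from Calml3, had values of 13.3, 11.2 and 13.3. These 3 had peaks in 7, 4 and 1 of the other 11 libraries. Further down the ranking were regions 54.8 kb from Amph, which encodes the endocytic protein amphiphysin (10.8, 11.7 and 10.9), and 425 kb from Cyp7b1, an oxysterol hydroxylase (11, 10.5 and 11). The remaining 4 lay nearest Lama4, Nat1, Epm2a and Enpp2, 32.9 to 317 kb away, with fold enrichments between 10.1 and 12.1; that nearest Epm2a was 52.8% repeat sequence. Values of the 10 regions thus differed little between male libraries, while their calls elsewhere ranged from 1 to 8 of 11 libraries.

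The strongest diestrus-only regions had smaller values of the lowest fold enrichment and were mostly intronic (7 of 10). The first, at chr9:3011494-3012017, was 94.8% repeat sequence and had fold enrichments of 6.45, 13.2 and 11.2 in diestrus libraries 1, 2 and 3. Reads can map to several copies of a repeat, so its value is uncertain, and it was no longer diestrus-only once peaks up to 200 bp apart were joined or peaks of all 17 libraries were merged. The region in an intron of Alk, a receptor tyrosine kinase (chr17:72472770-72473211), had values of 5.94, 5.81 and 5.71. It had a peak in all 11 other libraries, male cocaine included. That in an intron of Kcnn3, a calcium-activated potassium channel (chr3:89649480-89650771), had values of 7.62, 5.69 and 6.54 and a peak in 6 of the other 11.

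The next lay in introns of Rnf220, a ubiquitin ligase (5.68, 6.81 and 5.71), and Ccdc134 (5.68, 6.14 and 5.71). A region 8.46 kb from Nfasc, an adhesion protein of the axon initial segment, had values of 6.45, 5.58 and 5.71. Introns of Anks1, of Camta1, a calmodulin-binding transcription activator, and of Ppp2r5d, a phosphatase subunit, held 3 more, with values between 5.36 and 7.37. The remaining one lay 43.4 kb from Zfp958, with values of 5.42, 5.47 and 5.5. Except for the repeat-rich region, the lowest value of each was between 5.36 and 5.71, and the number of other libraries with a peak ranged from 1 to 11.

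Male-only regions lay far from gene starts. Intergenic sequence held 49.4% of them, against 31.9% of diestrus-only regions and 28.3% of all regions, and their median distance to the start of a protein-coding gene was 70.7 kb, against 42.2 kb and 40.8 kb. Introns held 42.1% of male-only and 53.5% of diestrus-only regions (53.6% of all). Exons held 6.75% and 13.6% (11.9% of all). Promoters, taken as 1 kb on each side of the gene's 5′ end, were touched by 1.77% of male-only regions (Wilson 95% interval 1.56 to 2, counting error only) and 1.01% of diestrus-only regions (0.77 to 1.33), against 6.15% of all. With 3 kb on each side the order of the 2 sets turned, with 4.3% and 6.83%.

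GC content of 50% or more was found in 14.8% of male-only regions (Wilson 95% interval 14.2 to 15.4), 20.9% of diestrus-only regions (19.8 to 22) and 23.5% of all. Without male library 2 the order of the 2 sets turned, with 19.8% of male-only and 18.9% of diestrus-only regions. Repeats made up 50% or more of the sequence in 1.81% of male-only, 5.78% of diestrus-only and 6.05% of all regions. For comparison, 10744 other regions also had peaks in 3 libraries, but of both groups. Of those, 24.4% were intergenic and 22.1% GC-rich, and 6.1% were mostly repeat, close to all regions in each case. Their promoter share was not close to that of all regions. It was 2.78%, against 6.15% of all regions and 18.5% of regions called in all 6 libraries. A low promoter share was thus not particular to male-only and diestrus-only regions.

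The sets were spread unevenly over chromosomes. Male-only regions made up 8.26% of the regions of chromosome 3, 8.23% of chromosome 13 and 7.76% of chromosome 1, and diestrus-only regions 1.52%, 1.55% and 1.55% there. On chromosome 7 the order turned: 267 regions (2.47%) were male-only and 387 (3.58%) diestrus-only, the single autosome with more diestrus-only regions. Chromosome 17 had 296 and 266, and chromosome 19 had 223 and 151. GC content over whole chromosomes, gaps included, was 39.5% for chromosome 3, 42% for chromosome 7 and 41.2% for chromosome 17. Chromosome 11, with the highest GC content (42.6%), had 656 male-only and 373 diestrus-only regions, and chromosome 16, with 39.6%, had 418 and 254.

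Promoters gave a short list of named genes. Of 20780 autosomal protein-coding genes, 11403 (54.9%) had a promoter peak in all 6 libraries and 7626 (36.7%) in none. Male-only promoters numbered 177 (0.852%) and diestrus-only promoters 32 (0.154%). The diestrus-only number was 78 without diestrus library 1, 50 without diestrus library 2 and 59 without male library 1.

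The male-only promoter ranked first by its lowest value was that of Crh, which encodes corticotropin-releasing hormone. Its peak at chr3:19693730-19694528 had fold enrichments of 8.16, 9.78 and 8.34. The 5′ end of Crh lies at chr3:19695396 on the minus strand. The region thus overlaps only the downstream edge of the 1 kb window, and its summit lies outside that window. Joining peaks up to 200 bp apart ended the call for Crh and for Upk3a. Next came Neurod6, a transcription factor of cortical pyramidal neurons, whose promoter peak (chr6:55680855-55681498) had values of 6.5, 7.44 and 6.59. Crh had a promoter peak in 7 of the other 11 libraries and Neurod6 in 2, both of proestrus cocaine pools.

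The other 6 of the first 8 were less readily tied to neurons. Vsig2, an immunoglobulin-domain membrane protein, had values of 7.78, 6.2 and 7.13, and the olfactory receptor gene Olfr459 had 6.12, 7.85 and 9.88. The predicted gene Gm13277 had 6.25, 5.78 and 5.93, and Lrit2, a leucine-rich-repeat membrane protein, had 7.27, 5.78 and 6.37. Mup5, a major urinary protein, had 6.25, 7.71 and 5.6, and the uroplakin Upk3a had 5.99, 5.51 and 7.46. The regions at Lrit2 and Upk3a overlapped only the upstream edge of the 1 kb window. Olfr459 and Mup5 belong to large families of similar genes, so reads may be shared between copies. Olfr459 and Lrit2 had a promoter peak in 0 of the other 11 libraries.

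Among the listed genes, 5 more had male-only or diestrus-only promoters besides Neurod6. Emx1, a homeodomain factor of the dorsal forebrain, had fold enrichments of 5.1, 3.86 and 3.84 in male libraries and no promoter peak in any other library of the series. Tbr1, a T-box factor of cortical projection neurons, had 4.08, 3.58 and 4.39 and a peak in 8 of the other 11 libraries. Bdnf, the neurotrophin, had 3.44, 3.86 and 4.06. Esrrg, an orphan nuclear receptor related to estrogen receptors, had 3.19, 2.75 and 2.41, and its call was lost with −log10 q of at least 5 and with the same number of strongest peaks per library. Kcnma1, the large-conductance calcium-activated potassium channel, was the single diestrus-only one, with 3.87, 4.24 and 2.49 in diestrus libraries, and was lost with −log10 q of at least 5.

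The first 8 diestrus-only promoters had lower values than the first male-only ones. Gm10100, a predicted gene, had 5.03, 5.36 and 4.98. Banf2 had 4.52, 4.02 and 3.84, Stox2, a winged-helix protein, 4.65, 3.57 and 3.53, and Fam124b 4.78, 3.91 and 3.42. Dmc1, a recombinase of meiosis, had 3.87, 4.24 and 3.42 and Plekhd1 3.87, 3.24 and 3.94. H2-DMb2, which loads peptides on class II histocompatibility molecules, had 3.23, 4.02 and 3.42, and Nlrc3, an inhibitory NOD-like receptor, 4.39, 3.46 and 3.11. Each of the 8, and Kcnma1, also had a promoter peak in diestrus cocaine library 1. For 5 of these 9 (Gm10100, Banf2, Fam124b, Dmc1 and Kcnma1) it was the single library of the other 11 with one.

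**Figure D2:**
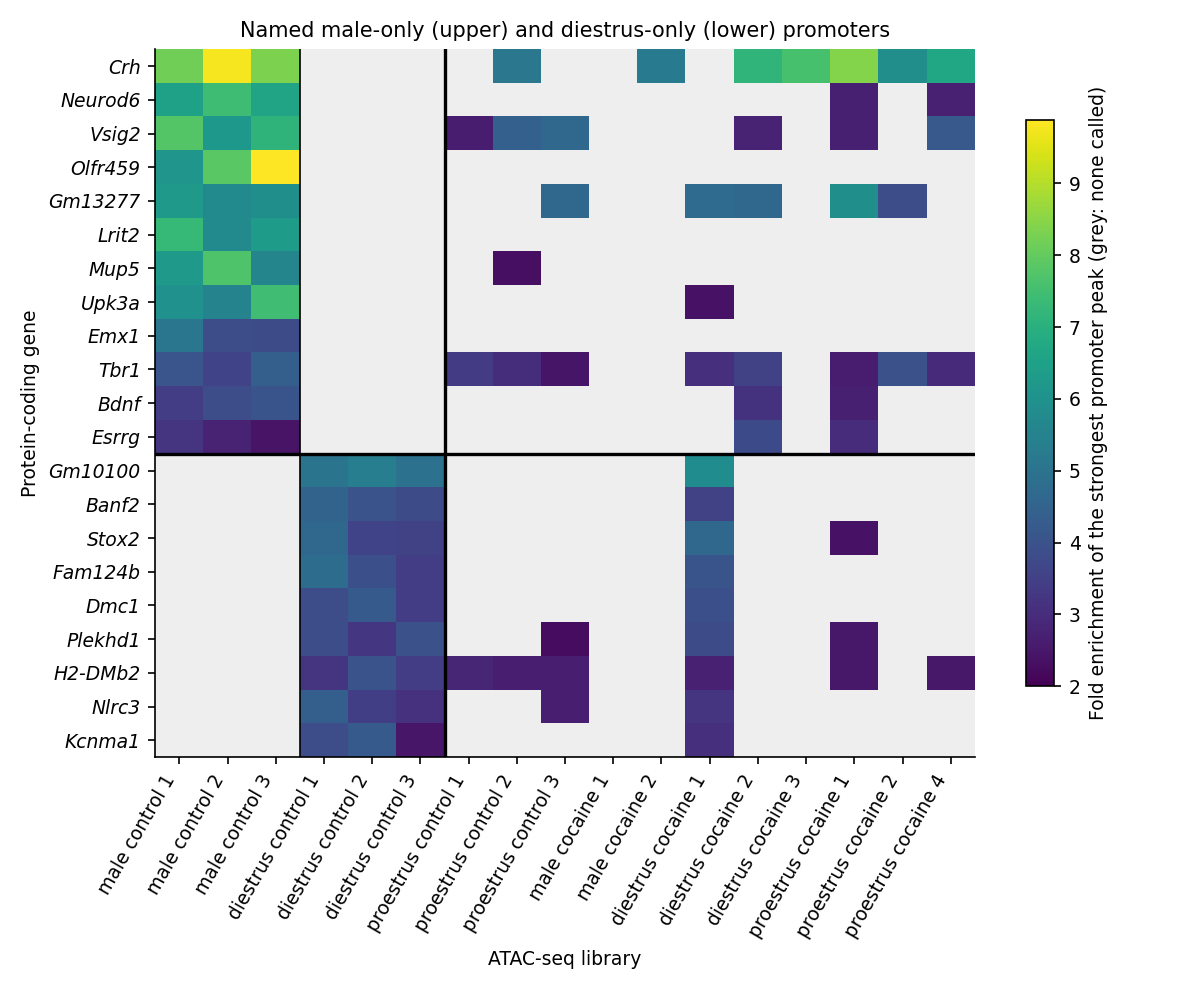
Fold enrichment of the strongest peak that overlaps the window of 1 kb on each side of the 5′ end of each named gene (rows). Columns are the 17 libraries, with grey where no peak was called. The upper 12 genes are male-only and the lower 9 diestrus-only by the first 6 columns; the column of diestrus cocaine 1 is filled for each of the lower 9, and Emx1, Olfr459 and Lrit2 are grey outside the male controls.

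Cell type markers were then examined. Medium spiny neuron genes had promoter peaks in all 6 libraries for 18 of 20 genes, Drd1, Drd2, Ppp1r1b and Penk among them, and 0 of their promoters were male-only or diestrus-only. In the body and 5 kb upstream of these genes, 17 of 847 regions (2.01%) were male-only and 12 (1.42%) diestrus-only, both below the shares over all regions. The summed fold enrichment at their promoters was 168 to 177 in male and 154 to 186 in diestrus libraries, which overlapped. Per 1000 regions called in a library, 3.33 to 3.44 lay in or upstream of these genes in male and 3.94 to 4.3 in diestrus libraries, without overlap. This was not particular to medium spiny neuron genes. Glutamate receptor genes (6.79 to 6.86 in male against 8.76 to 10 in diestrus libraries) and voltage-gated channel genes (10.1 to 10.7 against 12.7 to 13.1) separated in the same direction. How many of all genes do so was not counted.

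Cortical excitatory neuron markers stood on the male side. Of the 15 genes, 3 had male-only promoters (Neurod6, Emx1 and Tbr1), 0 had diestrus-only ones, 4 had promoter peaks in all 6 libraries and 6 in none. In and upstream of these genes, 19 of 117 regions (16.2%) were male-only and 2 (1.71%) diestrus-only, and 11 of the 15 genes held at least 1 male-only region. Over all genes, 3538 of 20780 held one. Slc30a3, the vesicular zinc transporter, held 3 male-only regions of 4, although it had no promoter peak. Each male library called 9 of the 15 promoters, with a summed fold enrichment of 60 to 65.3, and diestrus libraries called 5, 6 and 4, with sums of 20.7, 40.9 and 18.6. Of all promoters, male libraries called 58.5% to 60.4% and diestrus libraries 57% to 59.2%. Per 1000 regions called, 0.506 to 0.596 lay in or upstream of these genes in male and 0.342 to 0.424 in diestrus libraries.

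The promoter of Slc17a7, the vesicular glutamate transporter of cortical neurons, had fold enrichments of 15.9, 11.4 and 14.7 in male libraries. In diestrus libraries it had 2.32 and 15.2 and no peak in library 3, so diestrus library 2 was within the male range. Neurod1 had 6.88, 8.54 and 5.6 in male and 3.61, 2.46 and 2.28 in diestrus libraries, without overlap. How many of all promoters separate in this way was not counted. Neurod2 had 5.35, 3.72 and 4.83 in male libraries and 2.23 in diestrus library 2, with no peak in the other two. Rorb and Nrn1 were called in all 6 with higher values in each male library, whereas Cux2 overlapped between groups (5.78 to 6.63 against 6.58 to 11.3). Eomes, Slc17a6, Emx2 and Fezf2 also had no promoter peak in these 6 libraries. A larger share of nuclei of one type and more accessible chromatin per nucleus cannot be told apart in pooled nuclei. Whether the dissections of the groups held the same amount of cortical tissue was not tested, and neither was the part of such tissue in the male-only regions.

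Markers of other cells that the dissection or the NeuN+ gate could leave were examined in the same way. Of 15 interneuron markers, 2 had promoter peaks in all 6 libraries and 11 in none, and 2 of 54 regions (3.7%) were male-only. Of 20 autosomal glial and vascular markers, 17 had no promoter peak in these 6 libraries, Aqp4, Cx3cr1 and Cldn5 among them. The other 3, Gfap of astrocytes and Olig1 and Mbp of the oligodendrocyte lineage, had one in all 6. Their regions were male-only in 12 of 136 cases (8.82%), above the 5.97% over all regions, and 5 of them lay in Mbp, the myelin basic protein gene, and 4 in Aldh1l1. The summed promoter fold enrichment of this list was 17.6 to 22.9 in male and 16.7 to 19.4 in diestrus libraries, which overlapped. Male libraries called 99, 75 and 94 of the 136 regions and diestrus libraries 56, 61 and 70, or 0.677 to 0.797 and 0.528 to 0.582 per 1000 regions called, without overlap. The part of these cells in the male-only regions was not tested.

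**Figure D3:**
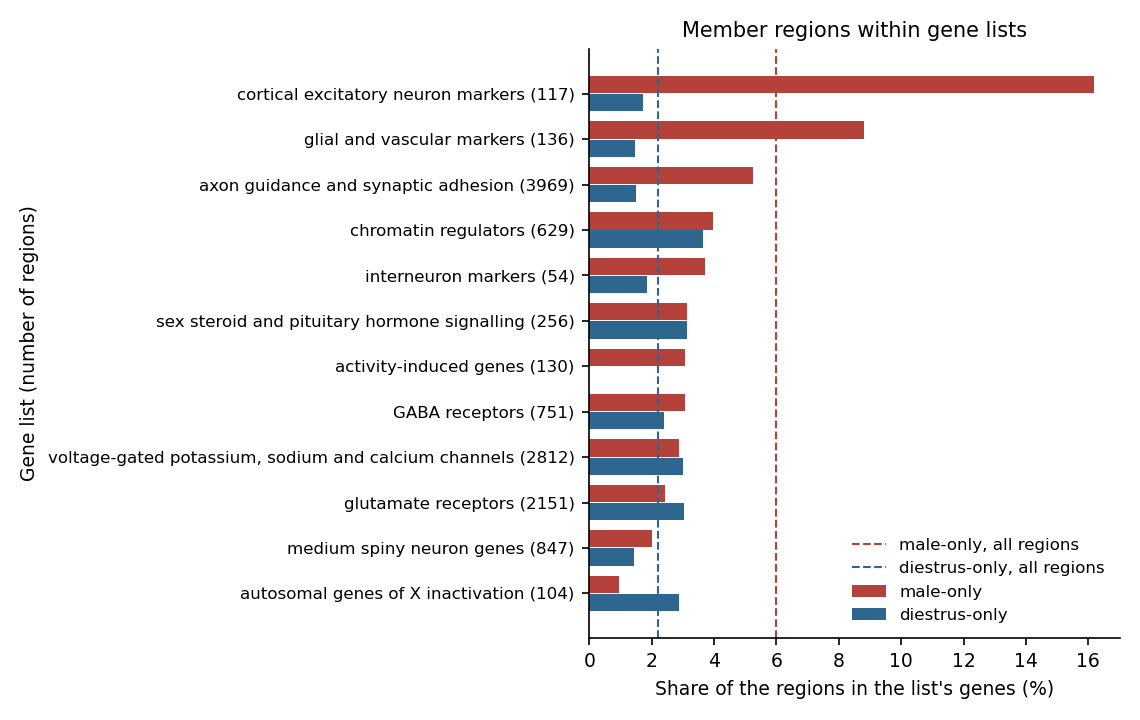
Share (%) of the regions in the body and 5 kb upstream of each list's genes that were male-only (red) or diestrus-only (blue), with the number of regions in brackets; dashed lines mark the shares over all regions, 5.97% and 2.19%. Cortical excitatory neuron markers reach 16.2% male-only, and medium spiny neuron genes 2.01%.

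The other lists lay on or under the male-only background. Axon guidance and synaptic adhesion genes had the most male-only regions in number (208 of 3969, 5.24%, in 32 of 34 genes) and 59 diestrus-only ones (1.49%). Over all genes, 3538 of 20780 held a male-only region, but the genes of this list held many regions each. Nrxn3, a presynaptic adhesion molecule, held 14 and 8. Voltage-gated channel genes had 81 (2.88%) male-only and 84 (2.99%) diestrus-only regions of 2812, and Cacna2d3, an auxiliary calcium channel subunit, held 25 of the latter and 2 of the former. Glutamate receptor genes had 52 (2.42%) and 65 (3.02%) of 2151, and Grid1, a delta-type receptor, held 7 and 8. GABA receptor genes had 23 (3.06%) and 18 (2.4%) of 751, with 13 and 4 in Gabbr2, a subunit of the metabotropic receptor.

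Sex steroid and pituitary hormone signalling genes had 8 male-only and 8 diestrus-only regions of 256 (3.12% each). Esr1, the estrogen receptor alpha gene, held 1 male-only region, and its promoter was called in male libraries 1 and 3 (2.68 and 2.41) and in no diestrus library. Pgr, the progesterone receptor gene, had promoter values of 5.86, 7.3 and 6.59 in male and 3.36, 2.68 and 3.53 in diestrus libraries, which did not overlap. Those of Ncoa2 and Srd5a1 did not overlap either, while those of Ncoa1, Ncoa3 and Esrra did, and the share over all promoters was not counted. Greb1, an estrogen-responsive gene, held 3 diestrus-only regions of 9 and had no promoter peak. Chromatin regulators had 25 (3.97%) male-only and 23 (3.66%) diestrus-only regions of 629, with 10 and 1 in Hdac9, a class IIa histone deacetylase. Activity-induced genes had 4 (3.08%) and 0 of 130, of which 3 lay in Bdnf. The autosomal genes of X inactivation, a list taken in part from the study, had 1 and 3 of 104, with 2 of the latter in Ciz1.

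Long neuronal genes held most members in number. Tenm2, a teneurin of synaptic adhesion, held 21 male-only regions (7.47% of 281), Dab1, the Reelin adaptor, 19 (10.6% of 180) and Ptprd, a receptor phosphatase, 19 (9.31% of 204). Magi2, a synaptic scaffold, held 17 (6.59% of 258) and Lsamp, a limbic adhesion protein, 15 (5.81% of 258). The model Gm37240, which overlaps 7 other protein-coding genes, held 17 (11.3% of 150). Against the background of 5.97%, Lsamp and Magi2 were near it and the others above. These genes were picked for their number of male-only regions, so a share above the background partly follows from that choice.

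Diestrus-only regions were most numerous in Rbfox1, a neuronal splicing factor, with 40 (5.71% of 700) beside 3 male-only ones. Cacna2d3 held 25 (6.93% of 361) and Cacna1c, the pore-forming subunit of an L-type calcium channel, 21 (7.84% of 268), each beside 2 male-only regions. Dlg2, a postsynaptic scaffold, held 22 (3.73% of 590) and Camta1 13 (7.3% of 178). The model Gm20388, which overlaps 73 other protein-coding genes, held 33 (3.24% of 1018). All 6 were above the background of 2.19%, which partly follows from picking them for their number of diestrus-only regions. Their male-only shares, 0.429% to 1.38%, were below that of all regions. Over all genes, 3538 held a male-only and 2304 a diestrus-only region, and 814 held both.

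Motifs were counted within 100 bp of the summit. The NeuroD E-box CAGATG, counted on both strands, occurred in 28.9% of male-only regions, 16% of diestrus-only regions, 15.3% of the regions called in 3 libraries of both groups and 17.1% of all. In the 1124 male-only regions whose lowest fold enrichment was at least 5 the share was 40.6%, and it was 27.9% in the rest. It occurred in 13% of the 23 diestrus-only regions of that strength. AP-1 (TGANTCA) occurred in 15.3% of male-only and 10.4% of diestrus-only regions (11.5% of all), and the E-box CAGCTG in 13.5% and 10.6% (11.4% of all). Regions called in all 6 libraries held AP-1 in 14.3% and CAGCTG in 13.3%, near the male-only shares. They held the NeuroD E-box in 15.4%, far below the male-only share. Some motifs can contain another, for example a MEF2 match can hold TAATTA, and neighbouring matches can share end letters. The shares of different motifs are therefore not independent.

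The homeodomain motif TAATTA was less frequent in both sets, at 5.19% and 5.98% (6.85% of all), and SP/KLF (GGGCGGGG) at 0.877% and 0.811% (2.43% of all). POU (ATGCAAAT) was found in 2.28% and 1.14% (1.75% of all) and FOX (TGTTTAC) in 2.3% and 1.54% (2.36% of all). SOX (CCATTGTT) was found in 0.438% and 0.851% (0.695% of all), and MEF2 in 5.62% and 6.55% (5.56% of all). CTCF, the factor of chromatin loop boundaries, matched 202 male-only regions (1.5%) and 7 diestrus-only regions (0.142%), against 1.61% of all. The cAMP response element TGACGTCA matched 0.267% and 0.264% (0.352% of all), EGR (GCGTGGGCG) 0.052% and 0.101% (0.113% of all) and NFI 0.163% and 0.203% (0.202% of all). The estrogen response element in its full palindromic form matched 0 male-only regions, 1 diestrus-only region and 11 of all 225623, and the steroid hormone response element 0.253% and 0.284% (0.207% of all). A match is a description of the letters, not of a bound factor.

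**Figure D4:**
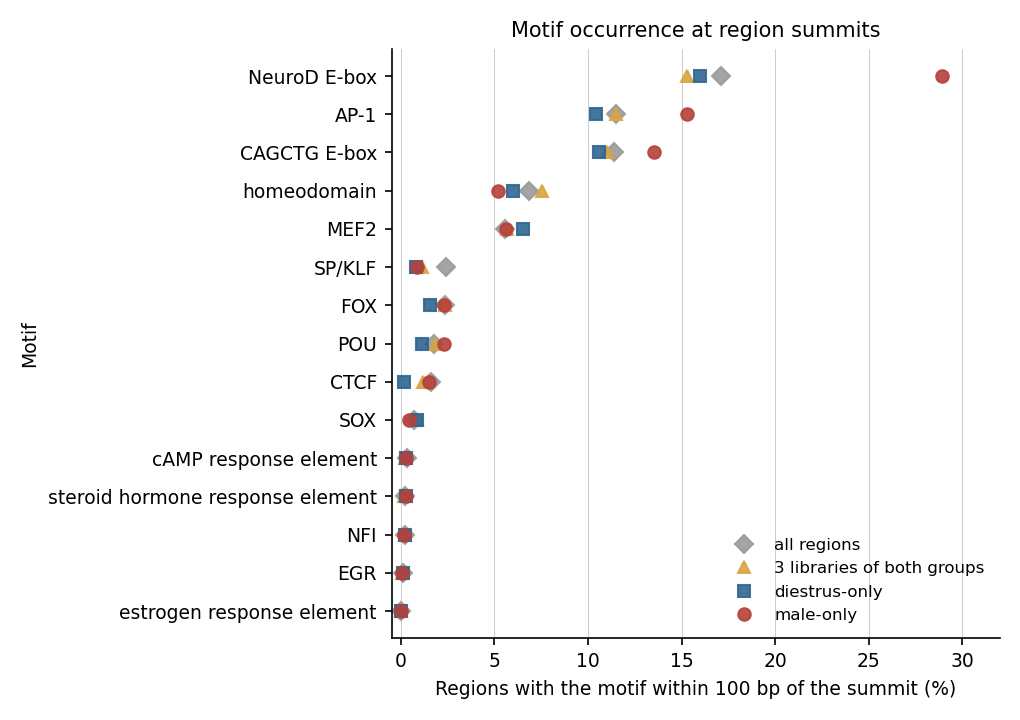
Share (%) of regions with each of 15 motifs within 100 bp of the summit, for male-only, diestrus-only, 3 libraries of both groups and all regions. The NeuroD E-box is the motif with the widest separation, 28.9% of male-only regions against 15.3% to 17.1% in the other sets.

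Next it was asked how these regions were called in libraries that had not chosen them. Of male-only regions, 6859 (51%) had no peak in any of the other 11 libraries, 31.9% had one in 1 to 3 and 17.1% in 4 to 11. Of diestrus-only regions, 422 (8.55%) had none, 56.1% had one in 1 to 3 and 35.4% in 4 to 11. For the regions called in 3 libraries of both groups, 8.85% had none. Over the 11 libraries together, male-only regions were thus the least often called of these sets.

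Male cocaine library 1 called 7.64% of male-only and 10.6% of diestrus-only regions, and library 2 called 4.55% and 6.35%. These were the libraries with the fewest autosomal peaks, 86626 and 74532. Proestrus control libraries called 11.6%, 8.68% and 11.4% of male-only and 25.6%, 28.5% and 34.2% of diestrus-only regions, a mean gap of -18.9 percentage points (± 4.49 SD, n = 3). Proestrus cocaine libraries 1, 2 and 4 called 27.4%, 15.1% and 23.4% of male-only and 29.9%, 27.2% and 28% of diestrus-only regions. Diestrus cocaine libraries 2 and 3 called 16.7% and 11.1% of the former and 21.5% and 16.1% of the latter, and library 1 called 14.5% and 80.2%.

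The male-only share was below the diestrus-only share in all 11 libraries, and this also held with −log10 q of at least 5, with equal numbers of the strongest peaks in every library, with peaks up to 200 bp apart joined and with regions merged over all 17 libraries. The gap in percentage points was compared between the 2 male and the 6 female cocaine libraries, which had no part in choosing the regions. It was -2.38 ± 0.82 in males and -15.8 ± 24.7 in females (SD). This difference of 13.4 was within the spread between libraries (two-sided exact permutation test, p = 0.321, adjusted p = 0.5 over 2 tests; the smallest p possible is 0.0357). It fell to 3.42 without diestrus cocaine library 1 (exact permutation test, p = 0.333).

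**Figure D5:**
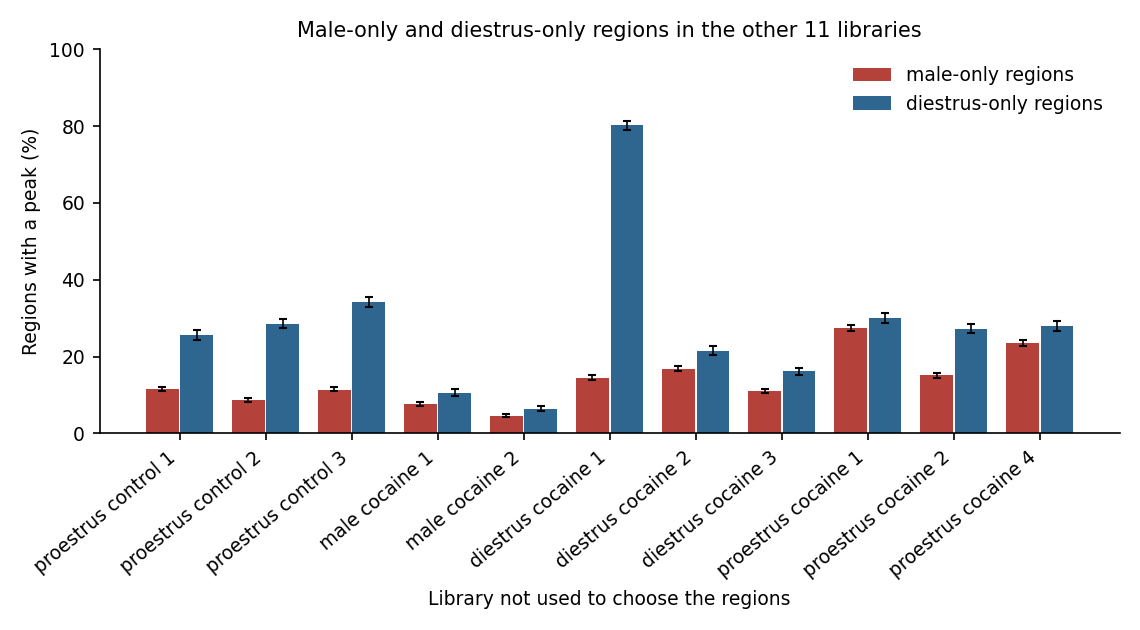
Share (%) of the 13461 male-only (red) and 4933 diestrus-only (blue) regions with a peak in each of the 11 libraries that did not choose them; bars show the share and error bars its Wilson 95% interval (counting error only). The blue bar is higher in each library, and diestrus cocaine 1 reaches 80.2%.

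At promoters the order differed. Diestrus cocaine library 2 called 84 of the 177 male-only promoters (47.5%) and 6 of the 32 diestrus-only promoters (18.8%), and proestrus cocaine library 2 called 44.6% and 28.1%. Male cocaine libraries called 16.9% and 11.9% of male-only and 9.38% and 6.25% of diestrus-only promoters. Proestrus control libraries called 9.6%, 13.6% and 15.8% of the former and 28.1%, 18.8% and 37.5% of the latter. Diestrus cocaine library 1 called 30 of the 32 diestrus-only promoters (93.8%) and 23.7% of the male-only ones. Male-only promoters were called at a higher share than diestrus-only promoters in both male cocaine libraries, in diestrus cocaine libraries 2 and 3 and in all 3 proestrus cocaine libraries; in proestrus cocaine library 4 the shares were nearly equal (28.2% and 28.1%).

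The cortical markers were called less often in all 11 of these libraries than in the male controls. Of all promoters, these 11 libraries called 55.3% to 59.9% and the male controls 58.5% to 60.4%. Male cocaine libraries each called 4 of the 15 promoters, with a summed fold enrichment of 18 and 16.7, below the lowest diestrus control, and were the libraries with the fewest peaks. Proestrus control libraries called 7, 5 and 7, with sums of 29.4, 26.2 and 36.0. Proestrus cocaine libraries 1, 2 and 4 called 7, 6 and 8, with sums of 26.1, 29.1 and 28.3. Diestrus cocaine library 1 called 7 with a sum of 44.8, and libraries 2 and 3 called 4 and 2, with sums of 17.7 and 11.3. The male controls, with 60 to 65.3, had the highest sums of the 17 libraries.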

How the data were processed

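Nuclei of 3 animals were pooled for each library. Per the authors' methods, adapters were removed, BWA-MEM placed the reads on mm10 and MACS2 found the peaks of each library on its own; versions and options are not given in the sources used here. The deposited intervals come with a score, with a ratio (the fold enrichment of the summit over the background pileup) and with −log10 p-values and q-values, which the authors computed within a library and did not scale between libraries. Fold enrichments are therefore given per library and not tested between groups. The authors' later filters and count test were not used here, since no counts per region entered; no blacklist was applied.

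Groups came from the sample labels. Peaks of the 6 control libraries on chromosomes 1 to 19 were merged at 1 bp of overlap (Python 3.11.15, numpy 2.4.6, pandas 2.3.3, scipy 1.17.1). Sequence was RefSeq GRCm38 and genes were GENCODE protein-coding genes of the same build, with a promoter of 1 kb on each side of the 5′ end; coordinates count from 1. A region was placed in a gene by its midpoint, and in the first fitting class of promoter, exon, intron and intergenic. The calls chose the regions, so no test was run on them. Peak number and the share gap in cocaine libraries were put to exact permutation tests (two-sided), adjusted by Benjamini-Hochberg over 2 tests. The calculations were tested on simulated data. Named were the 10 regions of each set with the highest value of the lowest fold enrichment, the 8 promoters of each set ranked likewise, the 6 genes with most regions of each set and, from 12 gene lists, genes with a male-only or diestrus-only promoter and the gene with most such regions; 1 gene named by this rule is not reported here. Other genes of the lists were chosen after their values were seen. The regions, lists and tests were chosen with earlier results of these data known. Alternatives were −log10 q of at least 5, equal numbers of strongest peaks (127205 per library, or 74532 where all libraries entered), joining peaks up to 200 bp apart, merging over 17 libraries, a 3 kb promoter and omission of each library. Read totals were not used here. The pools are separate samples by the labels, and Wilson intervals cover counting error only, since regions of a library are not independent.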

Additional observations from a re-analysis of the deposited data

Results flagged for a closer look

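Among the 6 female cocaine libraries, diestrus cocaine library 1 stood apart in the gap between the share of male-only and of diestrus-only regions called. Its gap was -65.7 percentage points, and the distance to the next library made up 0.847 of the range of the 6, above the 95% critical value of Dixon's test. Values past that limit arise by chance in about 1 of 20 groups. It was also the library that called each of the 9 named diestrus-only promoters. The labels give it the same treatment as diestrus cocaine libraries 2 and 3, whose gaps were -4.8 and -5.02.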

How the results depend on the processing

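The counts of regions and promoters kept the male-only set the larger under each alternative run. With −log10 q of at least 5 there were 2347 diestrus-only regions, promoter shares of 2.05% (male-only) and 1.41% (diestrus-only), a GC-rich share of 23.1% in diestrus-only regions and a mean gap of -11.9 points in proestrus controls. With equal numbers of strongest peaks the promoter share of diestrus-only regions was 1.4% and the proestrus gap -24.7 points. Merging over 17 libraries gave a GC-rich share of 18.9% in diestrus-only regions. A 3 kb promoter gave 57 diestrus-only promoters and shares of 4.3% and 6.83%. Omitting 1 library gave 5749 to 10678 diestrus-only and 14908 to 19147 male-only regions, 36 to 78 diestrus-only and 195 to 262 male-only promoters, promoter shares of 1.74% to 2.22% (male-only) and 0.974% to 1.5% (diestrus-only), GC-rich shares of 13.5% to 19.8% and 17.8% to 25.2%, a proestrus gap of -28 to -13.9 points, a cocaine gap of 3.42 to 16.1 and a peak number difference of 1556 to 11076. Omission loosens the rule, since 2 libraries then suffice; for the other changes the cause was not tested. With the replicate number as a block (paired sign flips, replicate block) the peak number difference was 6142.7 with an exact p of 0.75, where 0.25 is the smallest possible. Same-numbered libraries did not deviate together: the correlations of their deviations over regions called in all 6 were -0.23, -0.188 and 0.0113. A region without a peak was not detectable at this depth, which is not absence.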

Other observations

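The 177 male-only promoters covered many kinds of genes, such as Il6, Mgp and Mybpc3. Of those outside the named sets, 6 genes of neurons are given here; they were chosen after their values were seen, and no theme was tested. Neurog2, a proneural factor of dorsal forebrain progenitors, had fold enrichments of 5.48, 3.99 and 5.82 in the male control libraries. Other helix-loop-helix genes were male-only too, Nhlh1 (4.46, 4.68 and 4.39) and Bhlhe22 (3.57, 4.54 and 5.05). Otx1, a homeodomain factor of deep cortical layers, had 3.31, 4.27 and 4.28. Synpr, a synaptic vesicle protein, had 5.35, 7.02 and 5.71, and Grp, gastrin-releasing peptide, 3.19, 3.58 and 3.51. Of these 6, Nhlh1 and Grp had no promoter peak in the other 11 libraries, and the others had one in 4 to 6.

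Receptor genes also appeared, again chosen after their values were seen. The mu opioid receptor gene Oprm1 had male-only values of 3.44, 4.41 and 2.74 and no promoter peak in the other 11 libraries, and the galanin receptor gene Galr1 had 4.08, 3.31 and 3.51. On the diestrus-only side, Trhr2, a receptor of thyrotropin-releasing hormone, had 2.97, 6.92 and 6.64, and Prkcd, the delta isoform of protein kinase C, 4.13, 3.8 and 2.49.

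Some activity-induced genes were called in all 6 libraries, and so belonged to neither set, but had fold enrichments that did not overlap between the groups; these values are not normalized between libraries. The promoter of Egr2 was called in all 6 libraries, with fold enrichments of 23.5, 19 and 21.1 in male and 3.1, 3.24 and 3.32 in diestrus controls. Egr3 had 20, 18.7 and 19.5 against 14.7, 15.6 and 14.5, and Jun had 72.8, 86.9 and 74.6 against 54.9, 56.2 and 53.3. Fos, Ier2 and Nr4a3 did not overlap either, while Egr1 did, with 56.7, 50.8 and 56.5 against 45.1, 55.5 and 53. Genes of other lists separated in the same way, such as Ncoa2 (33, 29.5 and 31.4 against 20.1, 22.9 and 21) and Tet2 (26.4, 31.3 and 28 against 17.2, 19.9 and 17.5). The share of all promoters that separate was not counted, so no trait of activity-induced genes can be read from these values.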
